A study of Mus musculus with 11 samples.

Results

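The interferon-stimulated genes examined here are 39 named genes of interferon signaling and response, measured in 5 PN1a and 6 PN1b samples of mouse mammary gland. Of the 39, 32 had at least 1 probe set (a group of short probes reporting on a single transcript) annotated to that gene alone, and these 32 genes carried 40 of the 12422 probe sets tested, against 8251 genes named in all. Ifi203 and Gbp4 were covered only by probe sets shared between several genes, and no probe set was named here for Bst2, Irf2, Oas1a, Oasl2 or Stat2. Where several probe sets covered a gene, the one with the largest mean stands for it unless another is named. Earlier results of these data were known when the 39 genes were listed. For some genes, named below, values in single samples were added only after they had been seen.

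PN1a and PN1b are premalignant outgrowth lines of p53-null mammary epithelium, passed from host to host. Outgrowths on the left and right of 1 animal gave rise to them. Tissue of each line was grown in the cleared mammary fat pads of syngeneic wild-type mice, which the methods describe as female Balb/c. Whole glands bearing the lesions were taken 8 weeks after transplantation, so the RNA holds p53-null epithelium and wild-type host cells in both groups. Each line descends from 1 outgrowth, so the samples of a line are not independent lesions. The ages and numbers of the host mice are not given in the labels, though the methods state an age at transplantation. Total RNA was hybridized to Affymetrix MG_U74Av2 arrays. The intensities that the authors deposited are linear and run from 1 to 1938, with 0.817% at the lowest value. Values below are log2 of these intensities unless a fold change is named.

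Interferons are secreted proteins that warn cells of infection and tune immune responses. Type I interferons act through the receptor chains Ifnar1 and Ifnar2 and a factor complex that includes Stat2 and Irf9 and binds the interferon-stimulated response element. Interferon gamma, made chiefly by T and NK cells, acts through Ifngr1 and Ifngr2, and genes that respond to it can carry the gamma-activated site. The induced genes encode proteins that block viral RNA and protein synthesis, GTPases that attack vacuoles holding microbes, factors that prolong the response and inhibitors that end it. In breast tissue such genes have been studied both as a readout of immune activity and as a state of the tumor cells themselves.

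Krt8 and Krt18, keratins of luminal epithelium, were measured in every sample, with PN1a ranges of 5.72 to 8.79 and 6.19 to 9.35, PN1b ranges of 8.26 to 9.36 and 9.32 to 9.87, and the lowest values of both in PN1a 1. The luminal list had no common direction: its 9 measured genes had log2 fold changes from -1.40 in Krt18 and -1.25 in Krt8 to 1.41 in Muc1, 1.44 in Gata3 and 2.63 in Krt19, and 0 were called. Csf1r, the receptor of macrophage growth factor, ranged from 4.87 to 6.52 in PN1a and from 3.31 to 4.61 in PN1b. Some samples stood apart. PN1a 1 and PN1a 2 are titled by numbers, and their means over 8 endothelial markers, relative to the average of the 11 samples, were -0.72 and -1.95. PN1a 3, PN1a 4, PN1a 5 and PN1b 5 are titled by the name of the line with a letter, PN1b 1 to PN1b 4 by joined numbers that may or may not mark pooled animals, and PN1b 6 by another name. What these title forms mean is not given by the labels or the methods, and they were picked out after the values were seen. Title endings also differ, 1 ending being shared by all PN1a samples with PN1b 5 and PN1b 6, so that it holds both groups.

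The windows around the start sites were searched for 2 motifs, and most of these genes lacked each of them. Of the 32 measured genes, 26 had a window of 250 bases before to 50 after a start site in RefSeq (GRCm38.p6), 36 windows in all. The core GAAANNGAA of the interferon-stimulated response element, read on both strands, was present in 13 of 36 windows, or 36.1%, against 8.56% of all 32851 windows of that length. Windows with at least 2 matches made up 25% of those of the interferon genes and 0.624% of all. The gamma-activated site TTCNNNGAA, also read on both strands, was present in 30.6% and 8.3% respectively. Stretches are shown for 6 genes with matches, in the direction of transcription, because they carry the letters that the 2 motifs count. Capitals mark the matches, which read as the reverse complement where the motif lies on the other strand, and neighbouring matches can overlap.
Ifit1, chr19:34640755-34640838 on the plus strand: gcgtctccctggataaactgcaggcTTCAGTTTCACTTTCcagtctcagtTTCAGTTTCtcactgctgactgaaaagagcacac
Ifit3, chr19:34583349-34583460 on the plus strand: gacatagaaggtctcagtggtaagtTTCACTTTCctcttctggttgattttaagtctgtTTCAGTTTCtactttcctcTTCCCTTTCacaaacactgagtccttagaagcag
Isg15, chr4:156200851-156200921 on the minus strand: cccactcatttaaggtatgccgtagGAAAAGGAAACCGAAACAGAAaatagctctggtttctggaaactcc
Eif2ak2, chr17:78882523-78882579 on the minus strand: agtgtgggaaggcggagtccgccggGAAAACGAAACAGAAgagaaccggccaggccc
Gbp2, chr3:142620580-142620638 on the plus strand: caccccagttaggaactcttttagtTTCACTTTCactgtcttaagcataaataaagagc
Irf1, chr11:53769899-53769957 on the plus strand, with a gamma-activated site: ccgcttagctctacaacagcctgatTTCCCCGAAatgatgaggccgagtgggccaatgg
Ifit1, Ifit3 and Isg15 held 3 response element matches each, Eif2ak2 held 2 and Gbp2 held 1. No match of either motif was found in the windows of Ifngr1 and Ifi47, which says only that these letters are not in those windows. A match is a description of letters and no evidence that a factor was bound in these glands.

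No interferon-stimulated gene passed the test between PN1a and PN1b, which does not show that their levels were equal. With limma over all 12422 probe sets (two-sided, where a call needs at least a 1.5-fold difference and an adjusted p below 0.05 after Benjamini-Hochberg correction), 0 of 40 probe sets were called higher in PN1a, where 0.869% of all probe sets were, and 0 were called lower, where 1.62% were, or 2.49% in either direction. At an unadjusted p under 0.05 there were 4 of 40, all higher in PN1a, or 10%, against 7.65% of all probe sets higher and 18.9% in either direction. The 4 were Mx1, Eif2ak2, Irf5 and another probe set of Ifi204. In none of the 32 genes did the 5 PN1a values lie all above or all below the 6 PN1b values, which 1.58% and 2.38% of all probe sets did. The median log2 fold change, PN1a minus PN1b, was 0.15 over the 32 genes, with 19 of 32 above 0, and -0.03 over all genes, with 47% above 0. Values for single genes ran from -0.80 in Ifngr1 to 0.76 in Mx1. These p-values measure only the spread between samples, since nothing in the labels says which glands came from separate mice. In whole glands, fewer cells of a type and less RNA per cell cannot be told apart.

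**Figure D1:**
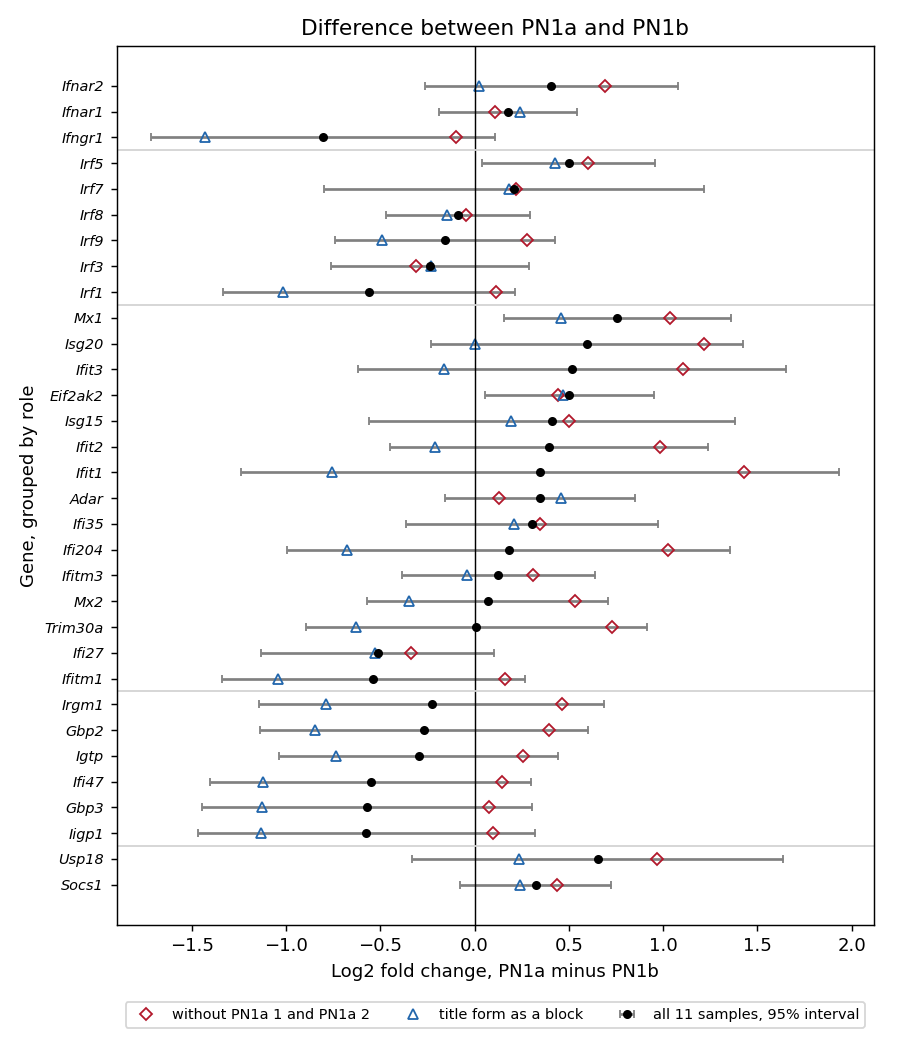
Log2 fold change (PN1a minus PN1b) of the 32 measured interferon-stimulated genes, grouped from top to bottom as receptors, interferon regulatory factors, antiviral effectors, GTPases and negative regulators. Black points are the fit on all 11 samples with 95% intervals, red diamonds the fit without PN1a 1 and PN1a 2, and blue triangles the fit with title form as a block. The intervals of 3 genes, Mx1, Eif2ak2 and Irf5, leave out 0, and the 6 GTPases lie below 0 in black, above 0 in red and further below 0 in blue.

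The log2 fold changes of the 3 receptor chains differed in sign, and none passed the test. Ifngr1, the ligand-binding chain of the interferon gamma receptor, was at 0.97, 1.19, 2.78, 3.16 and 2.60 in PN1a 1 to PN1a 5, and in PN1b had a lowest value of 1.95, a median of 3.09 and a highest of 3.77. Its 2 lowest values were those of PN1a 1 and PN1a 2, and the other PN1a values lay within the range of PN1b. The log2 fold change was -0.80 ± 0.42 (SE, limma adjusted p = 0.328). Those 2 lowest values were close to the lowest deposited value. With a constant added to each intensity before log2, the log2 fold change of Ifngr1 was -0.19. Ifnar1, a chain of the type I interferon receptor, was at 5.07, 4.81, 4.69, 4.81 and 4.81 in PN1a and from 4.38 through a median of 4.64 to 4.92 in PN1b. It had the smallest residual SD of the 32 genes, 0.194, and a log2 fold change of 0.18 with a 95% interval from -0.19 to 0.54. Ifnar2, the partner chain, was at 4.95, 4.60, 5.33, 5.32 and 5.80 in PN1a and at 3.99, 4.60 and 5.75 as the lowest, median and highest of PN1b. The groups overlapped, with a log2 fold change of 0.41 (95% interval -0.26 to 1.08).

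The interferon regulatory factors, which carry the signal to DNA, had a median log2 fold change of -0.12 over 6 genes. Irf5, a factor of Toll-like receptor signaling in myeloid cells, was at 3.16, 2.62, 2.92, 3.45 and 3.07 in PN1a and at 2.18, 2.53 and 3.12 as the lowest, median and highest of PN1b. PN1a values lay mostly above those of PN1b, but the ranges overlapped, and a log2 fold change of 0.50 ± 0.21 had a limma adjusted p of 0.226. Beside it, macrophage markers (12 of 12 measured, none at the lowest value in all samples) had summed intensities of 416 to 951 in the PN1a samples and 323 to 832 in the PN1b samples. On the log2 scale their mean deviations from the average of the 11 samples did not overlap, at 0.03 to 0.82 in PN1a against -0.76 to 0.01 in PN1b. Their median log2 fold change was 0.88, and 1 of them, Cd68, was called higher in PN1a. Their part in the Irf5 value was not tested. Irf1, a factor induced by interferon gamma, was at 5.73, 6.06, 7.75, 7.46 and 7.51 in PN1a and from 6.87 through 7.57 to 7.82 in PN1b. PN1a 1 and PN1a 2 were the lowest of the 11 samples, while PN1a 3 to PN1a 5 fell inside the PN1b range, and the log2 fold change was -0.56 (95% interval -1.34 to 0.22).

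Irf3, which is activated by viral nucleic acid sensing rather than made on demand, was at 3.28, 2.26, 2.45, 2.76 and 2.52 in PN1a and from 2.38 through 2.87 to 3.41 in PN1b, with a log2 fold change of -0.24. Irf9, the DNA-binding part of the type I complex, was at 4.16, 4.84, 5.47, 5.37 and 5.92 in PN1a and from 5.08 through 5.30 to 5.57 in PN1b, with a log2 fold change of -0.16. For Irf9, PN1a 1 and PN1a 2 lay below every PN1b sample and PN1a 5 above them all. Irf8, needed for myeloid and dendritic cell development, was among the steadiest genes, with a residual SD of 0.222 and a log2 fold change of -0.09. Irf7, the factor that amplifies type I interferon production, was at 4.95, 7.11, 6.59, 5.67 and 5.91 in PN1a and from 4.12 through 5.96 to 6.82 in PN1b. Here PN1a 2 was the highest sample of all and PN1b 4 the lowest. The log2 fold change of Irf7 was 0.21, and that of its second probe set was -0.20, the only second probe set of 8 with the opposite sign.

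The 15 measured antiviral effectors had a median log2 fold change of 0.35, with 13 above 0 and 0 called. Mx1, of the dynamin-like GTPase family, was at 4.07, 4.56, 5.62, 4.57 and 4.85 in PN1a and from 3.51 through 3.91 to 4.55 in PN1b. Only PN1a 1 of the PN1a samples lay below the highest PN1b value, that of PN1b 5, and the log2 fold change of 0.76 ± 0.28 had a limma adjusted p of 0.16. Eif2ak2, the kinase PKR that halts translation on double-stranded RNA, was at 3.09, 3.96, 3.54, 3.08 and 3.48 in PN1a and from 2.54 through 2.90 to 3.27 in PN1b. Its log2 fold change was 0.50 ± 0.21 (limma adjusted p = 0.212). Ifi27, a protein of mitochondria and the nuclear envelope, was at 6.06, 6.88, 7.25, 6.80 and 6.67 in PN1a and from 6.47 through 7.29 to 7.93 in PN1b, a log2 fold change of -0.51. Ifi27 and Ifitm1, at -0.54, were the 2 antiviral effectors below 0. Ifitm1 and Ifitm3 encode membrane proteins that hold back viral entry, and Ifitm3 stood at 0.12. Adar, which edits double-stranded RNA, was at 0.35, and Ifi35, a regulator of innate sensing, at 0.31.

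Ifit1, Ifit2 and Ifit3, whose proteins bind foreign RNA ends and stop its translation, separated samples within both lines. Ifit1 was at 2.93, 4.85, 6.57, 6.24 and 6.97 in PN1a 1 to PN1a 5 and at 4.59, 5.39, 5.57, 3.18, 7.10 and 5.15 in PN1b 1 to PN1b 6. The 4 letter-titled samples held its 4 highest values, and PN1a 1 and PN1b 4 its 2 lowest, while the group means, 5.51 ± 1.65 (SD, n = 5) and 5.16 ± 1.28 (SD, n = 6), differed by 0.35. Ifit2 was at 3.38, 4.41, 5.60, 5.05 and 5.44 in PN1a and at 4.13, 3.91, 4.48, 3.99, 5.46 and 4.32 in PN1b. Ifit3 was at 2.87, 3.69, 4.79, 4.25 and 5.21 in PN1a and at 2.88, 3.99, 4.23, 1.93, 5.08 and 3.76 in PN1b. In both genes the letter-titled samples were again the top 4, though for Ifit3 PN1a 4 lay barely above PN1b 3. The windows of Ifit2 and Isg20 held no response element match, and each held 1 gamma-activated site. Isg15 held 3 response element matches, as Ifit1 and Ifit3 did, and its top 4 were not the letter-titled samples. Of the genes with a window, the letter-titled samples were above all others in 3 of 12 with a response element match and 2 of 14 without. Their median excess over the others was 0.72 log2 units in the genes with such a match and 0.56 in those without. The part of either motif in the split was not tested.

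Isg20, an RNA exonuclease, also had the letter-titled samples as its top 4, at 3.31, 2.98, 4.99, 4.43 and 4.66 in PN1a and at 3.02, 3.62, 3.47, 2.77, 4.41 and 3.57 in PN1b. Mx2, a relative of Mx1, lay at 6.05 to 6.65 in the letter-titled samples and at 5.00 to 5.90 in the others. Trim30a, a ubiquitin ligase that restrains inflammatory signaling, lay at 2.88 to 3.47 and 1.27 to 2.76 respectively. Ifi204, a DNA sensor of a family of near-identical neighbours, lay at 6.95 to 7.78 and 4.76 to 6.93, and its level is uncertain because the probe set is of the kind that can bind several members of a family. Across all 32 genes, the 4 letter-titled samples lay above the other 7 in 7, or 21.9%, against 1.84% of all genes, and below them in 0, against 1.5%. The 7 were antiviral effectors, of 15 measured. These values are a description, since the title form was picked out after they were seen. The same split was found in 3 of 81 marker genes, or 3.7%, against 1.84% of all genes. Cd14, a monocyte marker, lay at 9.34 to 9.47 against 6.82 to 8.67. Gzma, a protease of T and NK cells, lay at 3.45 to 4.23 against 0.62 to 3.33, and Retn, an adipocyte marker, at 1.55 to 2.75 against 0.09 to 1.21. In the macrophage and T and NK cell lists some other members had higher means in the letter-titled samples and some lower. Among the lower, the mean difference was -0.12 in Cx3cr1, -0.12 in Msr1, -0.29 in Cd3g and -0.50 in Cd4. Whole lists did not have this split. Mean deviations of fibroblast markers were 0.36 to 0.61 in the letter-titled samples and -1.81 to 0.54 in the others. Those of endothelial markers were 0.20 to 0.46 and -1.95 to 0.53. For T and NK cell markers they were 0.06 to 0.26 and -0.60 to 0.38, and for macrophage markers -0.04 to 0.60 and -0.76 to 0.82. The part of these cell types in the interferon values of the letter-titled samples was not tested.

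The pattern did not extend to every antiviral effector. Isg15, the ubiquitin-like modifier, was at 6.34, 7.37, 7.20, 7.01 and 7.05 in PN1a and at 6.44, 7.46, 7.63, 4.83, 7.33 and 5.81 in PN1b. Its highest value was that of PN1b 3, which is not letter-titled, and its lowest was that of PN1b 4. Adar was highest in PN1a 2 at 3.67 and lowest in PN1b 2 at 2.37. The letter-titled samples exceeded the others by a mean of 2.20 log2 units in Ifit1, 0.59 in Isg15, 0.14 in Irf7 and -0.04 in Adar.

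**Figure D2:**
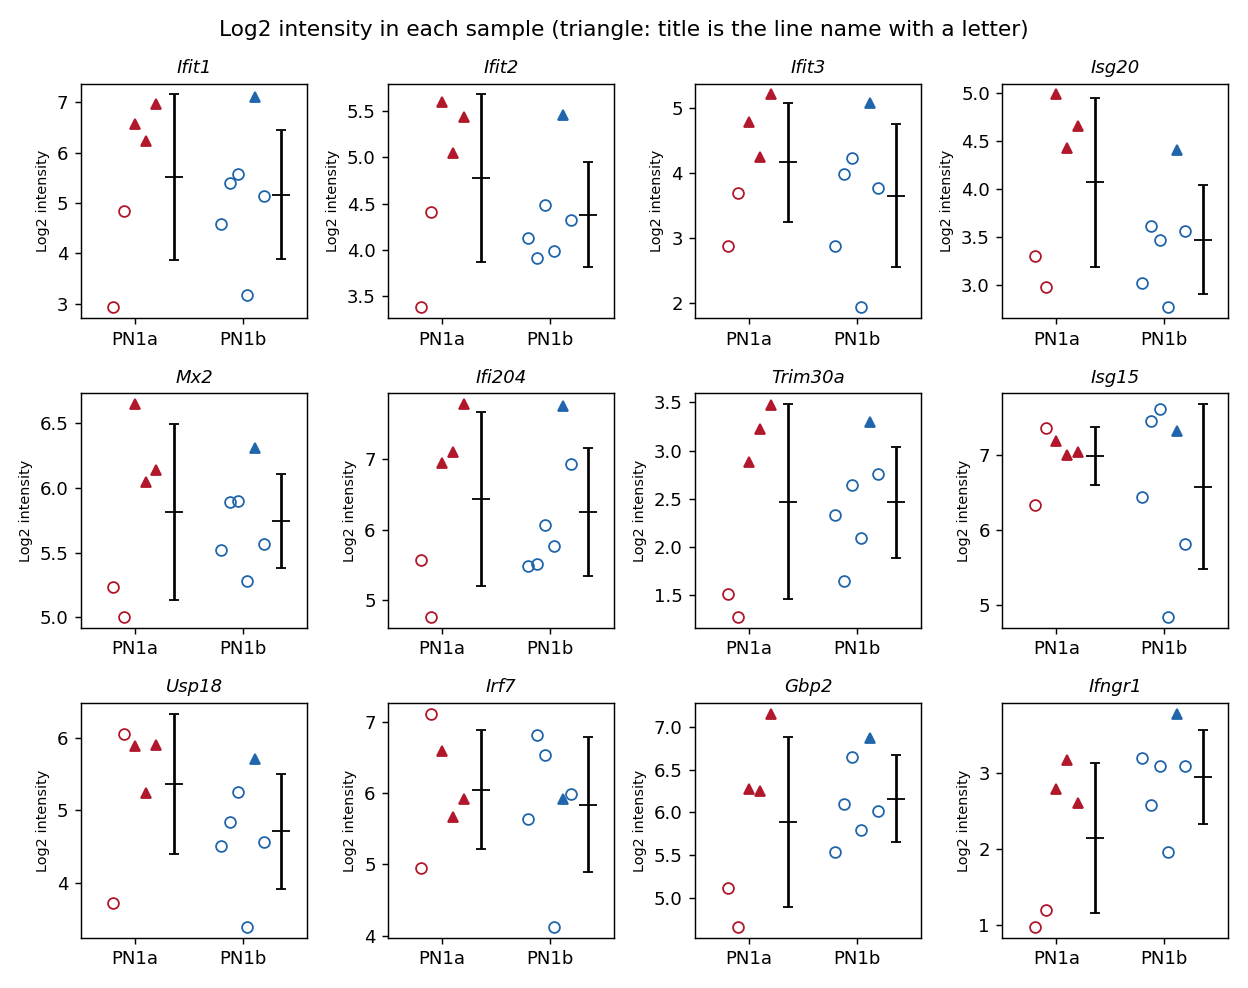
Log2 intensity of 12 interferon-stimulated genes in each sample, 1 panel per gene with its own axis, PN1a in red and PN1b in blue, with black bars for mean ± SD. Filled triangles are the 4 samples titled by line name and letter. In the first 7 panels every triangle lies above every circle, and in Isg15, Usp18 and Irf7 circles reach the top.

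The 6 interferon-inducible GTPases all had log2 fold changes below 0, their median being -0.42, and 0 of them were called. Gbp2 and Gbp3 are guanylate-binding proteins, and Igtp, Irgm1, Iigp1 and Ifi47 are immunity-related GTPases that act on the membranes of vacuoles. Gbp3 was at 4.60, 5.73, 6.61, 6.59 and 7.17 in PN1a and from 6.08 through 6.71 to 7.37 in PN1b, with a log2 fold change of -0.57. Ifi47 was at 3.60, 4.69, 5.85, 5.71 and 6.11 in PN1a and from 5.28 through 5.76 to 6.32 in PN1b, with a log2 fold change of -0.55. Both had their 2 lowest values in PN1a 1 and PN1a 2, below every PN1b sample, and the other PN1a samples inside the PN1b range. Iigp1 was at 6.01, 6.14, 7.86, 7.33 and 8.05 in PN1a and from 6.64 through 7.87 to 8.28 in PN1b, and Igtp at 3.84, 5.02, 5.88, 5.57 and 5.99 and from 5.16 through 5.64 to 5.96. Their log2 fold changes were -0.57 and -0.30, those of Gbp2 and Irgm1 were -0.27 and -0.23, and limma adjusted p over the 6 genes ran from 0.483 to 0.816.

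PN1a 1 and PN1a 2 lay below PN1a 3 to PN1a 5 in all 6 GTPases, as in 19 of the 32 genes, against 20.5% of all genes, and above them in 0 of 32, against 21.3%. The highest PN1a value of all 6 was that of PN1a 5 and the highest PN1b value that of PN1b 5. Without PN1a 1 and PN1a 2 the 6 genes had a median log2 fold change of 0.20 in place of -0.42, so the direction rested on those samples, and 0 interferon-stimulated genes were called, where 0.684% of all probe sets were called higher and 0.66% lower. In PN1a 1 and PN1a 2 markers of several cell types were low beside these genes. Relative to the average of the 11 samples, the means in these 2 samples were -0.72 and -1.95 for endothelial markers, -0.31 and -1.81 for fibroblast, -0.84 and -0.82 for adipocyte, -0.49 and -0.60 for T and NK cell, -1.02 and -0.09 for luminal and 0.82 and 0.03 for macrophage markers. The T and NK cell markers (13 of 16 measured) had summed intensities of 71.1 to 125 in the PN1a samples and 79.4 to 125 in the PN1b samples. Those of the endothelial markers (8 of 8) were 105 to 377 and 264 to 386, with none at the lowest value in all samples. Their part in the GTPase values was not tested.

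The negative regulators Usp18 and Socs1 were both above 0. Usp18, which removes Isg15 from proteins and blocks signaling at Ifnar2, was at 3.72, 6.05, 5.89, 5.24 and 5.91 in PN1a and from 3.39 through 4.70 to 5.71 in PN1b, with PN1b 4 the lowest of the 11 samples and PN1a 2 the highest. Its log2 fold change was 0.65 (95% interval -0.33 to 1.63). Socs1, an inhibitor of Jak kinases, was at 2.80, 2.55, 3.28, 2.99 and 2.61 in PN1a and from 2.16 through 2.56 to 2.71 in PN1b. Its log2 fold change was 0.32 with a limma adjusted p of 0.374.

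**Figure D3:**
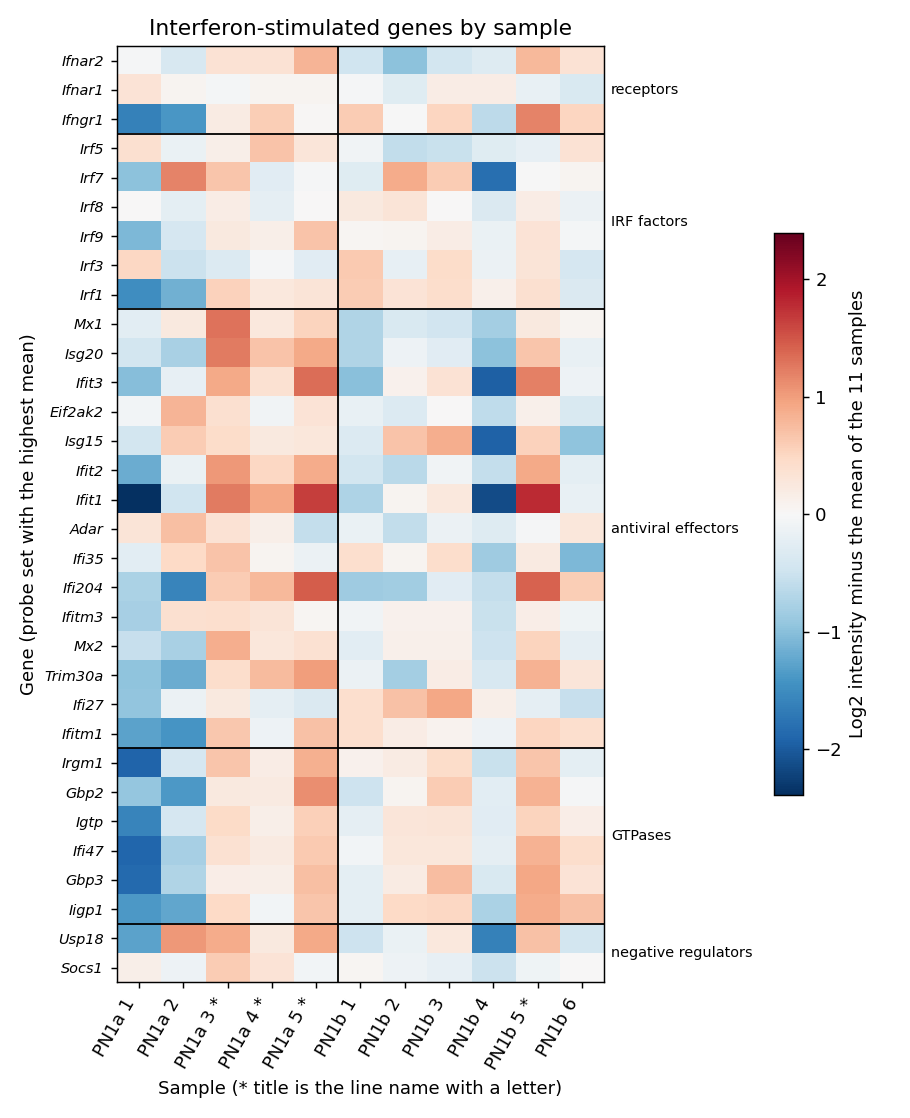
Log2 intensity of the 32 interferon-stimulated genes minus each gene's mean over the 11 samples, with samples across, genes down and roles divided by lines. PN1a 1 and PN1b 4 are blue over most genes, the 4 starred letter-titled samples are red over most, and no role has 1 colour in PN1a and the other in PN1b.

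Averaged over the 32 genes, the deviations from the mean of the 11 samples were -0.80, -0.33, 0.52, 0.24 and 0.49 in PN1a 1 to PN1a 5 and -0.15, -0.03, 0.20, -0.62, 0.53 and -0.05 in PN1b 1 to PN1b 6. Over all genes the same deviations ran from -0.09 to 0.08. Within PN1a the lowest value of a gene was that of PN1a 1 in 18 of 32 genes, against 21.6% of all genes. Within PN1b it was that of PN1b 4 in 20 of 32, against 14.1%, and the highest was that of PN1b 5 in 21 of 32, against 14.4%. Mean deviations of the macrophage markers were -0.52, -0.04, -0.76, -0.71, -0.04 and 0.01 in PN1b 1 to PN1b 6. In endothelial markers PN1b 4 was at 0.05 and PN1b 5 at 0.46, and in T and NK cell markers at 0.01 and 0.26 respectively. The part of these cell types in the interferon values was not tested.

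The spread between samples of a line was wide for these genes. The residual SD of the fit had a median of 0.683 log2 units over the 32 genes and 0.418 over all genes, and 14 of 32 lay above the 90th percentile of all genes. Ifit1 had the largest, 1.46, followed by Ifi204 at 1.06, Ifit3 at 1.02 and Irf7 at 0.898, while 8 of 32, among them Ifnar1, Irf8, Socs1 and Eif2ak2, lay below the median of all genes. Among genes above the median level the medians were 0.71 for the interferon-stimulated genes and 0.356 for all. The median SD was 0.857 within PN1a and 0.471 within PN1b, where over all genes it was 0.414 and 0.362. The residual SD had a median of 0.767 in the 12 genes with a response element match in a window and 0.614 in the 14 without.

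**Figure D4:**
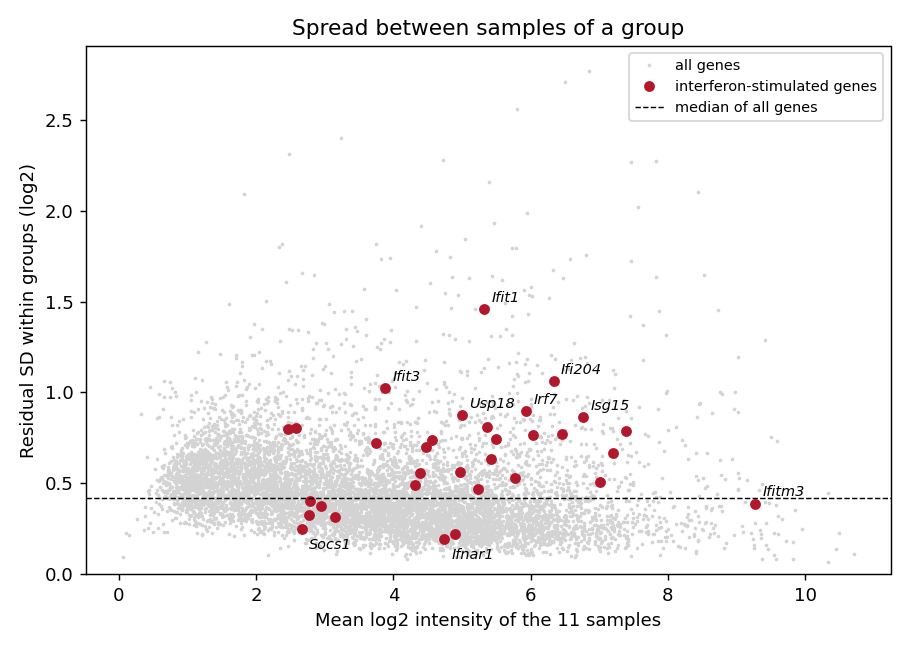
Residual SD within groups (log2 units) against the mean log2 intensity of the 11 samples, with 1 point per gene, all genes in gray and the interferon-stimulated genes in red. Ifit1 at 1.46 is the highest red point, and 24 of 32 red points lie above the dashed median of all genes.

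Other genes of interferon production and response, from a list of 103 of which 64 were measured by 80 probe sets, gave 1 call. That was 1 of 80 called lower, or 1.25%, against 1.62% of all probe sets, and 0 higher, against 0.869%, so the share lay near the background. Casp1, the protease that matures interleukin 1 beta, was lower in PN1a, at 3.96, 3.65, 3.95, 3.95 and 3.51, than in PN1b, where it ran from 4.23 through 5.13 to 5.52. The groups did not overlap, and the log2 fold change was -1.19 ± 0.23 (SE, limma adjusted p = 0.0156). Smallest in p after Casp1 were Ifngr2, the second chain of the interferon gamma receptor, at 1.26, the ligands Ifna2 at 0.99 and Ifna11 at -0.67, Gbp7 at -1.16 and the immunoproteasome subunit Psmb9 at 0.74 and Casp4, a relative of Casp1, at -1.11, none of which passed. Ifna11 lay near the lowest deposited value, with a mean of 0.73. The probe set of Ifna2 is of the kind that can bind several members of a family. The median log2 fold change of the 64 genes was -0.05.

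Rsad2, the antiviral enzyme viperin, and Cmpk2, the nucleotide kinase beside it, also had these 4 samples on top and were picked out after their values were seen. Rsad2 lay at 6.82 to 7.66 in the 4 letter-titled samples and at 1.44 to 4.43 in the other 7, and Cmpk2 at 3.94 to 4.78 and at 0 to 1.18. For Cmpk2, 3 values were at the lowest deposited value. A second probe set of Cmpk2 lay at 1.64 to 2.01 and at 0.01 to 1.76, so that its ranges overlapped. In the 64 genes the letter-titled samples were above the others in 7, or 10.9%, against 1.84% of all genes, and below them in 0, against 1.5%. Among the ligands, Ifnb1 was at 0.93, 0.47, 3.41, 3.64 and 3.88 in PN1a and from 2.36 to 3.53 in PN1b, low in PN1a 1 and PN1a 2. Ifng was at 1, 1.54, 0.74, 1.35 and 0.19 in PN1a and from 0.05 to 2.26 in PN1b. Its mean of 1.09 lay near the lowest deposited value, at percentile 9.19 of all probe sets, so no difference between samples is read from it.

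Because 3 of the 5 PN1a samples and 1 of the 6 PN1b samples are letter-titled, title form and line are partly mixed. With title form as a block, the median log2 fold change of the 32 genes was -0.22, 0 were called higher, where 1.95% of all probe sets were, and 2 were called lower, where 3.71% were. The 2 were Ifngr1, at -1.43 (limma adjusted p = 0.0195), and Ifi47, at -1.12 (0.0399). Ifngr1 was close to the lowest deposited value in PN1a 1 and PN1a 2, at 0.97 and 1.19. Without the letter-titled samples, which leaves PN1a 1 and PN1a 2 alone against 5 PN1b samples, 6 of 40 probe sets were called lower, 15% against 6.73% of all, and 0 higher, against 3.03%. They belonged to Ifngr1, Irf1, Ifi47, Ifitm1 and Iigp1. Within the title ending that holds both groups, 5 PN1a against PN1b 5 and PN1b 6, the median was -0.12 and 0 genes were called in either direction, where 0.0483% of all probe sets were called higher and 0.0966% lower. No antiviral effector named above for the letter-titled samples was called between PN1a and PN1b in any of these fits.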

How the data were processed

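Glands of 5 PN1a and 6 PN1b samples were profiled on Affymetrix MG_U74Av2. Using dChip (version not given in the sources), the authors modelled PM-MM differences and normalized arrays by quantiles. Their deposited table gives linear intensity for 12488 probe sets. All values are 2 to the power of a multiple of 0.01 (100% within 1e-05 log2 units), and background and normalization were not repeated from scanner files.

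From the deposited intensities log2 was taken without a pseudocount, and 66 array controls were left out. Gene names came from the array annotation (10833 with 1 symbol, 396 with several, 1193 with none). Lines were compared with limma 3.58.1 in R 4.3.3 (lmFit and eBayes, two-sided, Benjamini-Hochberg over 12422 probe sets, no covariate). The median intensity per sample was 8.57 to 9.51, no pair of samples shared more than 1.24% of its values, and precision is limited by the number of arrays. The steps were tested on simulated data.

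The members, roles, marker and pathway lists were chosen with earlier results of these data known. Values in each sample are given for up to 4 genes per role with the smallest p and those with the largest and smallest residual SD. Ifit2, Ifit3, Isg15, Irf7, Mx2, Trim30a, Ifi204, Gbp2, Irgm1, Adar, Cd14, Gzma, Retn, Krt19, Gata3, Muc1, Rsad2, Cmpk2, Ifnb1 and Ifng were given values after these were seen. Alternatives were the methods' t-test, title ending as a block or within 1 ending, another normalization, filter, log scale, fold threshold or summary, and samples left out. Fits with log2(value + 1), with title form as a block and without letter-titled samples were chosen after seeing the data. Python 3.11.15 with matplotlib 3.10.9 drew the figures.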

Additional observations from a re-analysis of the deposited data

Results flagged for a closer look

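In PN1b, Ifit2 was at 5.46 in PN1b 5, and the gap to the next sample took up 0.632 of the range of the 6 samples, above the limit of Dixon's test for 6 samples. It was the only 1 of 64 groups of samples (32 genes in 2 lines) to pass that limit, where chance flags about 1 in 20. The cause was not tested.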

How the results depend on the processing

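No paired analysis was possible because the labels give no replicate numbers that PN1a and PN1b share. No interferon-stimulated gene was called in either direction under any alternative other than those named here. Leaving out each sample in turn gave 0 to 1 probe sets called higher, the 1 being another probe set of Ifi204 without PN1b 5 (log2 fold change 1.02), and 0 lower. Without PN1b 5 that was 2.5% of 40 higher, where 1.47% of all probe sets were called higher and 3.03% lower. The median log2 fold change of the 32 genes ranged from -0.04 to 0.28 without single samples. Calls among the pathway genes were 2 lower by the methods' t-test, above the median level and with eBayes with trend and robust. The shares of all probe sets called in those fits are not given here, so these counts cannot be set against a background. With title ending as a block 0 were lower, against 0.153% of all probe sets, and within the ending that holds both groups 0, against 0.0966%. Without PN1a 1 and PN1a 2 there was 1 higher, against 0.684%, and 0 lower, against 0.66%. Without single samples the pathway calls were 0 to 2 higher and 1 to 2 lower, with no share of all probe sets given beside that range. Chosen after seeing the data, title form as a block gave 2 of 40 interferon-stimulated and 11 of 80 pathway probe sets called lower, against 3.71% of all probe sets. Leaving out the letter-titled samples gave 6 of 40 and 15 of 80 lower, against 6.73% of all, and 1 pathway probe set higher, against 3.03%.

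Signs turned in 19 genes under the settings that keep or drop groups of samples, and 12 genes kept theirs throughout. With title ending as a block, or within the ending that holds both groups, which gives the same estimates since the other endings hold PN1b alone, the log2 fold changes were Ifit2 -0.11, Mx2 -0.13, Ifit3 -0.26, Ifnar2 -0.34, Trim30a -0.56, Ifit1 -0.61, Ifi204 -0.91 and Ifi27 0.10, and as a random block Trim30a was at -0.065. With title form as a block they were Ifitm3 -0.04, Ifit3 -0.16, Ifit2 -0.21, Mx2 -0.35, Trim30a -0.63, Ifi204 -0.68 and Ifit1 -0.76. Without the letter-titled samples they were Ifit3 -0.078, Ifitm3 -0.11, Isg20 -0.14, Ifit2 -0.27, Mx2 -0.52, Ifi204 -0.79, Ifit1 -0.89 and Trim30a -0.90. Without PN1a 1 and PN1a 2 they were Gbp3 0.078, Iigp1 0.10, Irf1 0.11, Ifi47 0.15, Ifitm1 0.16, Igtp 0.26, Irf9 0.28, Gbp2 0.40 and Irgm1 0.46. Leaving out single samples gave ranges across 0 of -0.58 to 0.0375 for Gbp2, -0.16 to 0.60 for Ifi204, -0.048 to 0.99 for Ifit1, -0.48 to 0.0583 for Igtp, -0.13 to 0.48 for Irf7, -0.35 to 0.09 for Irf9, -0.47 to 0.22 for Irgm1, -0.14 to 0.27 for Mx2 and -0.24 to 0.31 for Trim30a. The causes were not tested.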
